A study of Mus musculus with 2 samples.

Results

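The proteasome and the cytosolic chaperonin are machines built from many different subunits that each take a fixed number of places, and their genes were examined here in trunk tissue of E8.5 mouse embryos that could or could not make retinoic acid (RA). The genes were chosen by symbol alone: Psma, Psmb, Psmc or Psmd followed by a number, Psme followed by a number, or Cct followed by 2 to 8. This matched 54 of the 24340 genes in the deposited table, of which 19 belong to the 20S core, 20 to the 19S regulatory particle, 5 to the other activators and 9 to the chaperonin. The remaining match, Psmc3ip, shares a name with Psmc3 but encodes a meiotic recombination factor, so it was described apart, although it is counted wherever all members are pooled.

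RNA-seq was performed on 2 samples, 1 per genotype. The wild-type sample and the Aldh1a2-/- sample both came from the trunk at E8.5, from which the head, the heart and the caudal zone had been cut away according to the methods. The Aldh1a2-/- embryos carry a germline knockout of the enzyme that makes RA from retinaldehyde, were bred from heterozygous parents, and lack the enzyme in every tissue. The methods mention 2 trunks per genotype while the labels list 1 sample of each, so no spread between replicates exists, no p-value was computed, and every difference below is between 2 libraries.

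Proteins marked for destruction with ubiquitin are recognised by the regulatory particle, unfolded by its ring of ATPases and cut inside the core, a stack of rings made of alpha and beta subunits. The chaperonin, known as CCT or TRiC, is a pair of stacked rings in which newly made actin and tubulin are folded. Both complexes are used by nearly every cell and hold each subunit in a fixed ratio, although protein subunits in excess are commonly degraded, so mRNA levels need not be equal. Transcription of proteasome genes can be raised by NFE2L1, a membrane-bound factor that acts when proteasome activity is short.

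The promoters of 4 members are shown because these genes have the lowest (Psma2, Psmb3 and Psmd12) or highest (Psmb4) ratio of Aldh1a2-/- to wild type in their ring or lid, among the members with a promoter in the table. Each sequence is the 250 bases before the start of the gene in RefSeq on GRCm38.p6, written 5′ to 3′ on the strand of the gene. They lie at chr13:14612992-14613241 on the plus strand for Psma2, chr11:97703184-97703433 on the plus strand for Psmb3, chr11:107479278-107479527 on the plus strand for Psmd12 and chr3:94886959-94887208 on the minus strand for Psmb4. Capitals mark matches, on either strand, to 4 sets of letters: CCAAT (the CCAAT box), TGACNNNGC (the core of the antioxidant response element bound by NFE2L1 and NFE2L2), GAANNTTC (the core of the heat shock element) and GCATGCGC (part of the site of nuclear respiratory factor 1, which is a different protein from NFE2L1).
Psma2: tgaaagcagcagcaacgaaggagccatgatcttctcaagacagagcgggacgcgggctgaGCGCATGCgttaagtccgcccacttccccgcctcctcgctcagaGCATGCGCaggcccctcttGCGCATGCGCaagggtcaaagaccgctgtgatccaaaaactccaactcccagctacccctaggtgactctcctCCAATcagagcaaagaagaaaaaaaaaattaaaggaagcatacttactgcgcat
Psmb3: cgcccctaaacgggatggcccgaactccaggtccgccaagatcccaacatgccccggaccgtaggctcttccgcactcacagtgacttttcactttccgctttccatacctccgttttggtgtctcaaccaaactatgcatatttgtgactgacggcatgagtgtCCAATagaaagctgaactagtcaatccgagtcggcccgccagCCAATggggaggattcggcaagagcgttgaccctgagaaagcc
Psmd12: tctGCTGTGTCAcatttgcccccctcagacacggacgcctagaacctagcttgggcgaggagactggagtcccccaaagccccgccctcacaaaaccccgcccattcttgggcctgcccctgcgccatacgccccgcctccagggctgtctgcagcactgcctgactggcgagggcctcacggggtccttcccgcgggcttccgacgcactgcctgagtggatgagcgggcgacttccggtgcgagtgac
Psmb4: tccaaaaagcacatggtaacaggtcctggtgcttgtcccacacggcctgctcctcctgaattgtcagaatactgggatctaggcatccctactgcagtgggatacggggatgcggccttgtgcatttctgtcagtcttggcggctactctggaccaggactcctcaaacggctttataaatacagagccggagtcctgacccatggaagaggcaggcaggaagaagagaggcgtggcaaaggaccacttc

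The Psma2 window holds GCATGCGC letters at 190 to 183, 146 to 139, 127 to 120 and 125 to 118 bases before the start, the last pair overlapping, and a CCAAT box at 54 to 50. The Psmb3 window holds a CCAAT box at 85 to 81 and another at 43 to 39 bases before the start. The Psmd12 window holds the antioxidant core at 247 to 239 bases before the start, and the Psmb4 window holds none of the 4 sets. A promoter was found in the table for 46 of the 54 members, in 51 windows, and none was used for Cct4, Psma8, Psmb1, Psmb2, Psmb7, Psmc3, Psmd3 and Psmd7. Of these 46 genes, 18 (39.1%) had a CCAAT box, against 33.8% of 32851 mouse promoter windows of the same length. The antioxidant core was in 7 (15.2%: Psmb5, Psmb6, Psmc6, Psmd9, Psmd12, Cct2 and Cct6a) against 10.2%, the heat shock core in 4 (8.70%) against 6.69%, and GCATGCGC in 2 (4.35%, Psma2 and Psmc5) against 2.26%. The member shares are of genes, whereas the background shares are of windows. Over the 51 member windows they were 35.3% (CCAAT box), 13.7% (antioxidant core), 7.84% (heat shock core) and 3.92% (GCATGCGC). These are matches of letters and not measured binding sites.

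Values are FPKM, that is, fragment numbers scaled by transcript length and by the number of mapped fragments, on the scale that the authors deposited. A gene was called measured when it was above 0.5 FPKM in both samples, and lower or higher in Aldh1a2-/- when the log2 ratio of the Aldh1a2-/- value to the wild-type value was below -0.85 or above 0.85, which are the cutoffs of the study. Aldh1a2 itself was at 128 FPKM in the wild-type library and 11.7 FPKM in the Aldh1a2-/- library (log2 ratio -3.45). Depth was estimated from low FPKM values times length in kilobases that fell in a fixed window of 0.03 to 0.042. Their median (16 genes in wild type and 12 in Aldh1a2-/-) was taken as 1 fragment. At that step 1 FPKM in a transcript of 1 kilobase stands for roughly 28.1 fragments of the wild-type library and 29.1 of the Aldh1a2-/- library. The window bounds both figures, so their closeness does not show equal depth. Levels of cell type markers differed between the samples: all 9 measured yolk sac endoderm markers of 10 and all 5 measured red blood cell markers of 9 in the table were higher in Aldh1a2-/- (summed FPKM 485.0 and 6914, and 299.9 and 5889, in wild type and Aldh1a2-/-). All 6 measured somite markers of 10 were lower (349.7 and 58.63 summed FPKM). Of the 6 spinal cord markers, 4 were measured and 2 were lower (68.2 and 44.06). Of the 7 heart markers, 2 were measured and both were higher (18.57 and 53.52 summed FPKM over all 7). Those not measured went both ways: Actc1 was at 6.13 and 0.0531 FPKM, Tnni1 at 0.436 and 13.4, and Myl7 at 0 and 2.36. Of 6 forebrain and midbrain markers 4 were listed at 0 in both samples and Emx2, the 1 measured, was lower (7.04 and 1.75 FPKM). Of 8 white blood cell markers 6, Ptprc among them, were listed at 0 in both. Csf1r was at 0.956 and 0.429 FPKM and Coro1a at 0 and 10.4 FPKM. The part of tissue makeup in the values below was not tested, and in bulk tissue fewer cells of a type and less RNA per cell cannot be told apart.

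Most of the 54 genes were within the cutoffs. Of the 47 measured members, 35 were within, 9 were lower (Psma2, Psma6, Psmb2, Psmb3, Psmd5, Psmd8, Psmd12, Psmd14 and Psmc3ip) and 3 were higher (Psmb4, Psmd9 and Psme1) in Aldh1a2-/- trunk, and the median log2 ratio was -0.18. Over all 9506 measured genes 45.6% were past a cutoff, 22.0% lower and 23.6% higher, with a median of 0.02. Most of these subunit genes are abundant, and abundant genes differed less between the libraries (SD of the log2 ratio 0.96 between 20 and 500 FPKM, 1.43 over all measured genes), so the share was also taken over the 3535 genes whose geometric mean level lies between 20 and 500 FPKM, a comparison added after the values were seen. In that range 28.6% of genes were past a cutoff, 12.0% lower and 16.6% higher (median 0.04), and of the 44 members in it 25.0% were past, 20.5% lower and 4.55% higher. Among the 47 measured members the size of the log2 ratio went with a lower geometric mean level (Pearson r -0.4, Spearman rho -0.396), a description over genes that share the same 2 libraries. The median, shares and correlations over members include Psmc3ip, which is no subunit and had the lowest log2 ratio (-3.32). As a whole the members took 0.723% of all FPKM in wild type and 0.76% in Aldh1a2-/-. The plot of levels shows every measured member in both libraries.

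**Figure D1:**
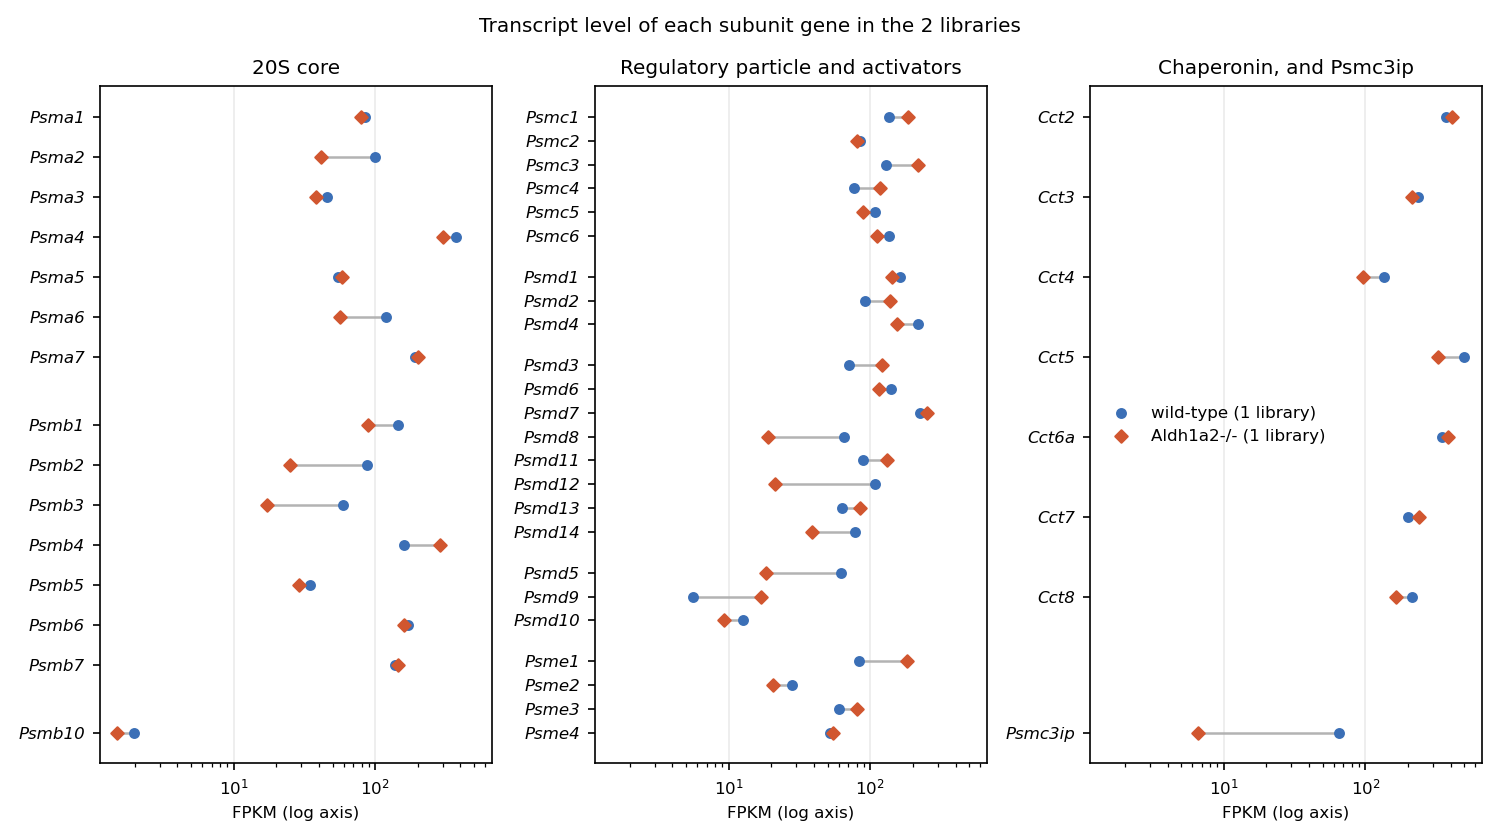
FPKM (log axis) of each of the 47 measured members in the wild-type library (circles) and the Aldh1a2-/- library (diamonds), 1 library per genotype, grouped by complex with a gap between parts of a complex. The markers nearly coincide for Psma1, Psmb6 and Psmc2, and lie furthest apart among proteasome subunits for Psmd12, at 108.1 and 21.3 FPKM.

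The alpha ring caps the core and forms the gate through which substrates enter. Of its 7 genes, 2 were lower in Aldh1a2-/- and 5 were within the cutoffs (median log2 ratio -0.26). All 7 lie between 20 and 500 FPKM, where 12.0% of all genes were lower and 16.6% higher. Psma2 was at 99.0 FPKM in the wild-type library and 41.1 FPKM in the Aldh1a2-/- library (log2 ratio -1.27). Psma6 was at 119 and 56.6 FPKM (-1.07). In the assembled ring the proteins of these genes are neighbours, named alpha 2 and alpha 1. The gene locus given in the file for Psma6 runs 177596 bases beyond the RefSeq gene, so its value may include reads of the genes beside it, and that of Psma3 runs 19946 bases beyond. Psma4 had the highest level of the ring in both samples, at 375.1 and 300.2 FPKM (-0.32), and Psma3 the lowest, at 45.8 and 38.1 FPKM (-0.26). Psma5 (54.9 and 58.3 FPKM, 0.09), Psma7 (190 and 199 FPKM, 0.07) and Psma1 (84.4 and 79.5 FPKM, -0.09) differed least. The level of the highest gene was 8.2 times that of the lowest in wild type and 7.87 times in Aldh1a2-/-, so the ring as a whole was about as uneven in both libraries.

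The beta ring holds the sites that cut the substrate. Of its 7 genes, 2 were lower and 1 was higher (median -0.25), where 12.0% of all genes between 20 and 500 FPKM were lower and 16.6% higher. Psmb2 was at 87.1 FPKM in the wild-type library and 24.9 FPKM in the Aldh1a2-/- library (-1.81), and Psmb3 was at 59.1 and 17.2 FPKM (-1.78). Both encode subunits without a cutting site, known as beta 4 and beta 3, which sit side by side in the ring. Psmb4, which encodes beta 7, a subunit also without a cutting site, was at 159.6 and 288.1 FPKM. Its log2 ratio of 0.852 lay just above the cutoff and was within it with a pseudocount of 0.5 or of 1 (0.848 with the latter), with upper quartile scaling (0.75), after centring on the median of all genes (0.83) and at a cutoff of 1. The 3 genes whose proteins cut were within the cutoffs. Psmb5, which gives the chymotrypsin-like activity and is the target of bortezomib, was at 34.6 and 29.1 FPKM (-0.25). Psmb6, of the caspase-like activity, was at 169.5 and 158.9 FPKM (-0.09), and Psmb7, of the trypsin-like activity, at 138.9 and 144.1 FPKM (0.05). The last of the ring, Psmb1, was at 145.5 and 89.3 FPKM (-0.70). Psmb3 stood at 0.37 times the level of Psmb4 in wild type and at 0.0596 times in Aldh1a2-/-, although the assembled ring holds both equally. Psmb3 has among the 2 lowest ratios of the ring and Psmb4 the highest, so the choice of this pair fixed a large change between them. Pseudogenes named after Psmb5, Psmb6 and Psmb7 exist in GENCODE M21, and reads could have been split between them and these genes.

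A separate set of core subunits replaces the usual ones in certain cells. Psmb8 and Psmb9, which interferon induces in place of Psmb5 and Psmb6, were listed at 0 in both samples, as were Psmb11, of the thymus cortex, and Psma8, of the testis. Psmb10, which takes the place of Psmb7, was at 1.99 FPKM in the wild-type library and 1.51 FPKM in the Aldh1a2-/- library (-0.40). Psmb7 was 70.0 times as high as Psmb10 in wild type and 95.7 times in Aldh1a2-/-. A value of 0 was not read as absence, since 64 of 3856 genes with over 20 FPKM in the wild-type library had a value of 0 in the Aldh1a2-/- library and 53 of 4031 the reverse.

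Over the 15 measured core genes 4 were lower and 1 was higher, with a median log2 ratio of -0.26. Of the 14 that lie between 20 and 500 FPKM 28.6% were lower and 7.14% higher, set against 12.0% and 16.6% of all genes in that range. With 14 genes these shares are only a description, and the higher gene, Psmb4, was within the cutoffs under several alternatives. The summed level of the core was 1765 FPKM in the wild-type library and 1526 FPKM in the Aldh1a2-/- library (log2 ratio of the sums -0.21). The 14 ring genes kept much of their order (Spearman rho of their levels 0.837) but were less even in Aldh1a2-/-: the SD of log2 FPKM among them was 0.925 in wild type and 1.32 in Aldh1a2-/-, and the range ran from 34.6 to 375.1 and from 17.2 to 300.2 FPKM. The difference lay in the beta ring, where the SD was 0.867 and 1.57, more than in the alpha ring, where it was 1.04 and 1.15. Subunits are not replicates, so these SDs describe unevenness within a library. Between the libraries, the SD of the log2 ratios was 0.764 for the 14 ring genes and 0.979 for the beta ring. Over all genes between 20 and 500 FPKM it was 0.96, so scatter of this size is common at this level.

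**Figure D2:**
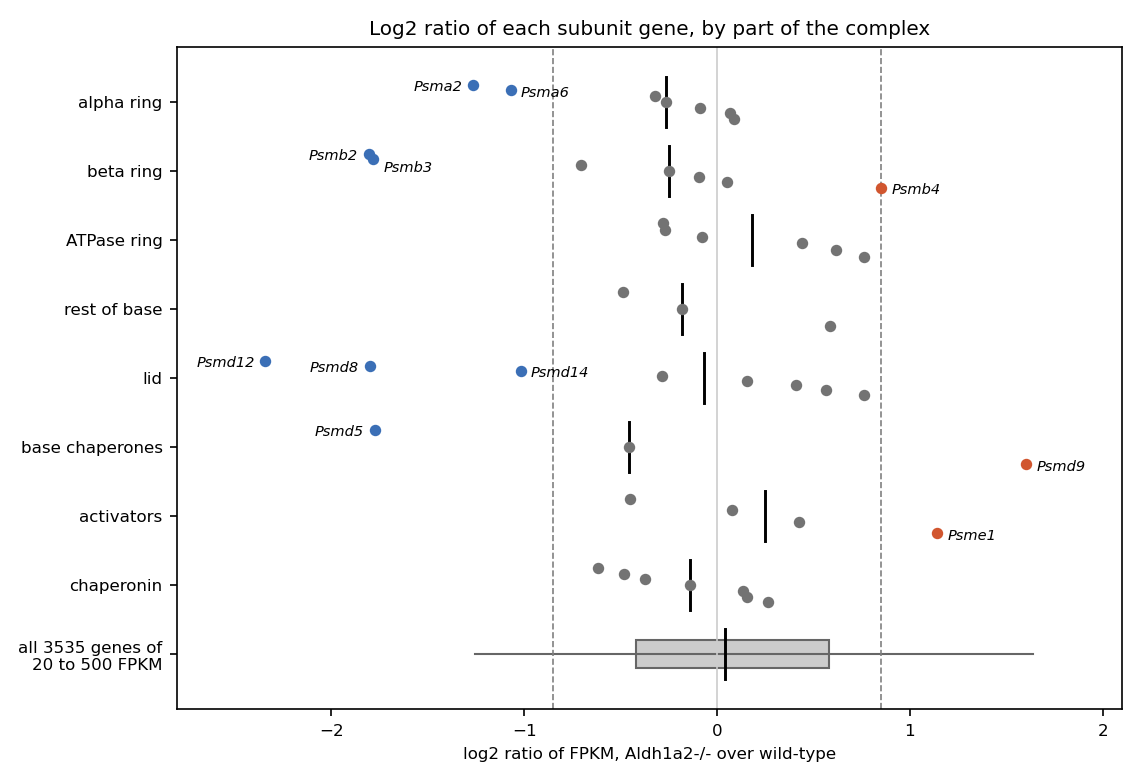
Log2 ratio of FPKM, Aldh1a2-/- over wild type, of each measured gene by part of the complex (points), with the median of each part (black bars), the cutoffs at -0.85 and 0.85 (dashed) and, in the bottom row, the median, middle 50% (box) and the 5th to 95th percentile (line) of the 3535 genes between 20 and 500 FPKM. Psmb10 (-0.40, within the cutoffs) and Psmc3ip (-3.32, lower) are not drawn. Labelled points are past a cutoff: 8 lower, with Psmd12 lowest at -2.34, and 3 higher, while no gene of the ATPase ring, the rest of the base or the chaperonin is labelled.

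The base of the regulatory particle sits on the core. Its 6 ATPase genes, which encode the ring that unfolds substrates and opens the gate, were within the cutoffs (0 lower and 0 higher, median 0.18). Of all genes between 20 and 500 FPKM 28.6% were past a cutoff, and with 6 genes the count is only a description. Psmc3 was at 129.3 FPKM in the wild-type library and 218.9 FPKM in the Aldh1a2-/- library (0.76). Psmc4 was at 76.4 and 117.2 FPKM (0.62), and Psmc1 at 135.8 and 184.4 FPKM (0.44). The other ATPases were level or slightly below: Psmc2 at 85.1 and 80.7 FPKM (-0.08), Psmc6 at 135.7 and 112.3 FPKM (-0.27) and Psmc5 at 107.7 and 88.7 FPKM (-0.28). In wild type their levels lay within 1.78-fold of each other, and in Aldh1a2-/- within 2.71-fold. On the TPM scale, which raises every log2 ratio by 0.16, Psmc3 was above the cutoff (0.92).

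The rest of the base was also within the cutoffs. Psmd1, a large scaffold subunit, was at 161.4 and 142.4 FPKM in the wild-type and Aldh1a2-/- libraries (-0.18). Psmd2, the other scaffold subunit, which docks ubiquitin shuttles, was at 91.2 and 136.8 FPKM (0.59). Psmd4, a receptor of ubiquitin chains, was at 217.7 and 155.2 FPKM (-0.49). The SD of log2 FPKM over the 9 base genes together was similar, at 0.48 in wild type and 0.468 in Aldh1a2-/-. Its 2 parts went opposite ways: the SD was 0.361 and 0.573 among the 6 ATPases, and 0.638 and 0.0929 among the 3 other genes. Adrm1, a further ubiquitin receptor that the symbol pattern does not match, was at 51.0 and 62.1 FPKM (0.28).

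The lid removes ubiquitin chains, and the log2 ratios of its genes had an SD of 1.16. Of 8 lid genes 3 were lower, none was higher and 5 were within the cutoffs (median -0.07). All 8 lie between 20 and 500 FPKM, where 12.0% of all genes were lower and 16.6% higher, and the SD of the log2 ratios was 0.96. With 8 genes the count is only a description. Psmd12, a structural subunit (Rpn5 in yeast), was at 108.1 FPKM in the wild-type library and 21.3 FPKM in the Aldh1a2-/- library (-2.34, 5.07-fold lower). Psmd8, the subunit that joins the lid last in yeast (Rpn12), was at 65.5 and 18.8 FPKM (-1.80). Psmd14, the metalloprotease that cuts the ubiquitin chain off the substrate, was at 78.5 and 38.7 FPKM (-1.02), whereas Psmd7, the catalytically inactive partner that it binds, was at 225.9 and 251.7 FPKM (0.16). Psmd14 and Psmd7 work as a pair of equal amounts, and Psmd7 had the highest level of the lid in both libraries. The remaining members lay on both sides of 0. Psmd3 was at 71.1 and 120.5 FPKM (0.76, or 0.92 on the TPM scale, where it passed the cutoff), Psmd11 at 89.3 and 132.1 FPKM (0.57) and Psmd13 at 63.3 and 83.9 FPKM (0.41). Psmd6 was at 140.0 and 114.8 FPKM (-0.29). Wild-type levels of the lid lay within 3.57-fold of each other and Aldh1a2-/- levels within 13.4-fold, and the SD of log2 FPKM was 0.632 and 1.35. Shfm1, which encodes the small acidic protein that ties the lid together, is not matched by the symbol pattern and was at 286 and 334 FPKM (0.22).

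The base is put together with the help of dedicated chaperones that leave the finished particle, and 3 of them carry Psmd symbols. Psmd5 was at 62.3 FPKM in the wild-type library and 18.2 FPKM in the Aldh1a2-/- library (-1.78). Psmd9 was at 5.57 and 16.9 FPKM (1.60). Psmd10, also known as gankyrin, was at 12.6 and 9.18 FPKM (-0.46). These chaperones thus had different directions, and Psmd9 and Psmd10 were well below the level of any 19S subunit in wild type.

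Across all 20 genes of the regulatory particle 4 were lower and 1 was higher, with a median of -0.13, or 0.03 on the TPM scale, where the sign turned. The 17 true subunits alone had 3 lower and 0 higher and a median of -0.08. Of the 18 genes between 20 and 500 FPKM 22.2% were lower and 0% higher, against 12.0% and 16.6% of all genes in that range, so the share past a cutoff was 22.2% against 28.6%. With 18 genes these shares are only a description. The summed level was 2062 FPKM in the wild-type library and 2063 FPKM in the Aldh1a2-/- library, so the sums were alike while single subunits differed. The SD of log2 FPKM among the 17 subunits was 0.565 and 1.06, but their interquartile range was 0.792 and 0.763, and the 3 lowest levels in Aldh1a2-/- were those of the lid genes Psmd8, Psmd12 and Psmd14.

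**Figure D3:**
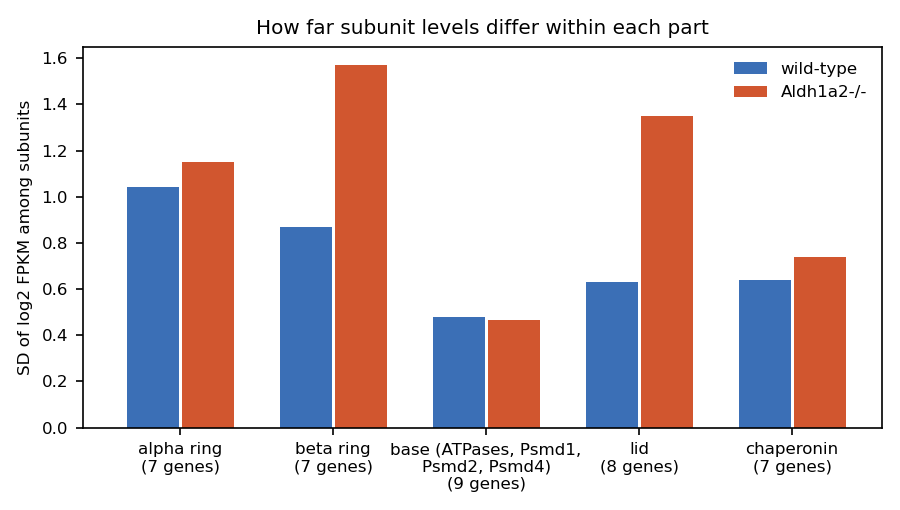
SD of log2 FPKM among the genes of each part in wild type (blue) and in Aldh1a2-/- (orange), 1 library each, with bars from 0 and no error bars since there are no replicates. The SD is larger in Aldh1a2-/- in the beta ring (0.867 and 1.57) and in the lid (0.632 and 1.35), and nearly the same in the pooled base (0.48 and 0.468). Not drawn apart, it was larger in Aldh1a2-/- among the ATPases (0.361 and 0.573) and smaller in the rest of the base (0.638 and 0.0929). The SD of the log2 ratios was 0.979 in the beta ring and 1.16 in the lid, beside 0.96 over all genes between 20 and 500 FPKM.

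Activators other than the regulatory particle open the core without using ubiquitin. Psme1 and Psme2 encode the subunits of a mixed ring, known as PA28 alpha and beta, that interferon induces. Psme1 was at 82.9 FPKM in the wild-type library and 182.6 FPKM in the Aldh1a2-/- library (1.14), and Psme2, its neighbour on chromosome 14, was at 28.0 and 20.5 FPKM (-0.45). Psme1 was 2.96 times as high as Psme2 in wild type and 8.92 times in Aldh1a2-/-, although the proteins are taken up in a nearly equal ratio. The locus that the file gives for Psme1 runs 3727 bases beyond the RefSeq gene. Psme3, whose product forms a nuclear ring of its own, was at 60.0 and 80.6 FPKM (0.43), and Psme4, a large single-chain activator, was at 51.7 and 54.5 FPKM (0.08). Psme2b was at 0.0387 and 0.0736 FPKM, below the floor in both samples. Of 4 measured activators 1 was higher and 0 were lower, a share of 25.0% higher, against 23.6% over all measured genes and 16.6% between 20 and 500 FPKM. With 4 genes this count is only a description.

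All measured chaperonin genes were within the cutoffs. The 7 genes had a median log2 ratio of -0.14 (0.02 on the TPM scale, where the sign turned), ratios from -0.62 to 0.27 and an SD of the ratios of 0.348, and 0% of them were past a cutoff. Over the 645 genes whose geometric mean level lies between 100 and 500 FPKM, as theirs do, a comparison added after the values were seen, the SD of the ratios was 0.86 and 16.6% were past a cutoff, 6.51% lower and 10.1% higher. With 7 genes, 0 past a cutoff is a description and not a difference from that share. Cct5 had the highest level of the 7 in wild type, at 499.0 FPKM, and was at 325.5 FPKM in Aldh1a2-/- (-0.62). Cct4 had the lowest level in both libraries, at 135.4 and 96.9 FPKM (-0.48). Cct8 was at 212.7 and 164.3 FPKM (-0.37), and Cct3 at 236.7 and 214.8 FPKM (-0.14). Cct5 and Cct4 thus had the lowest ratios, and 3 genes were slightly above 0. Cct7 was at 199.9 and 240.3 FPKM (0.27), Cct2 at 369.6 and 411.8 FPKM (0.16) and Cct6a at 349.0 and 383.4 FPKM (0.14). Each of these genes encodes a different subunit that fills the same number of places in both rings. Their levels lay within 3.69-fold of each other in wild type and within 4.25-fold in Aldh1a2-/-, with an SD of log2 FPKM of 0.639 and 0.74. Cct2 overtook Cct5, from 0.741 times its level in wild type to 1.27 times in Aldh1a2-/-. The summed level was 2002 and 1837 FPKM (log2 ratio of the sums -0.12).

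The chaperonin has 1 more subunit, encoded by Tcp1, which the symbol pattern leaves out. Tcp1 was far above the others, at 1090 FPKM in the wild-type library and 889.9 FPKM in the Aldh1a2-/- library (-0.29), which is 8.05 and 9.18 times the level of Cct4. With Tcp1 added, 0 of 8 subunit genes were past a cutoff and the median was -0.22. Cct6b, which replaces Cct6a in the testis, and Cct8l1 were listed at 0 in both samples. For Cct8 and Cct7 the loci in the file run 28340 and 4720 bases beyond the RefSeq genes, and a pseudogene of Cct3 is annotated.

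Psmc3ip, the match by name only, had the lowest ratio of the 54 genes, at 65.3 FPKM in the wild-type library and 6.56 FPKM in the Aldh1a2-/- library (-3.32, 9.96-fold lower). Its product works with the recombinase DMC1 in meiosis and is no part of the proteasome. Its locus in the file runs 4851 bases beyond the RefSeq gene. Without it the 39 measured proteasome genes had 8 lower and 3 higher.

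Position and promoter letters were set beside the calls. The 54 genes are spread over 19 chromosomes, and chromosome 11 holds 12 of them, of which 10 were measured and 3 were lower (Psmb3, Psmd12 and Psmc3ip). Of the 8 lower genes with a promoter window 5 had a CCAAT box, as did 11 of 29 genes within the cutoffs and 0 of 3 higher genes. The antioxidant core was found in 1 of 8 lower genes, 5 of 29 within and 1 of 3 higher. With so few genes these counts are only a description.

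Other genes of the same pathways, 70 in the table on a list written from their known roles, gave 65 measured genes, of which 8 were lower and 7 higher (median -0.04). The 23.1% past a cutoff compares with 45.6% over all measured genes and 28.6% between 20 and 500 FPKM. Among the factors that assemble the core, Psmg4 was at 208 FPKM in the wild-type library and 58.5 FPKM in the Aldh1a2-/- library (-1.83), Psmg2 at 26.8 and 61.0 FPKM (1.19) and Psmg1, the partner of Psmg2, at 34.0 and 20.2 FPKM (-0.75). Psmg3, the partner of Psmg4, was at 43.6 FPKM in the wild-type library and listed at 0 in the Aldh1a2-/- library. Pomp, a factor needed to mature the core, was within the cutoffs, with a log2 ratio of 0.55. Psmf1, an inhibitor of the core, was at 1.32 and 4.38 FPKM (1.73), the only gene past a cutoff among 6 measured inhibitors and associated factors. The assembly factors therefore lay on both sides, as the subunits did.

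Of the 5 regulators of proteasome and chaperone genes 2 were higher and 0 were lower, where 23.6% of all measured genes were higher. With 5 genes the count is only a description. Nfe2l1 was at 45.1 FPKM in the wild-type library and 43.9 FPKM in the Aldh1a2-/- library (-0.04), and Hsf1, the heat shock factor, at 17.3 and 16.8 FPKM (-0.04). Both were nearly the same in the libraries. Nfe2l2, the factor of the oxidative stress response, was at 11.1 and 20.9 FPKM (0.91, within the cutoffs at 0.81 with upper quartile scaling and at a cutoff of 1), and Ngly1, which removes sugars from NFE2L1 and so activates it, at 0.638 and 7.78 FPKM (3.61). Vcp, the segregase that pulls proteins out of complexes for the proteasome, was at 93.4 and 98.3 FPKM (0.07).

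Of 25 measured genes that work with the chaperonin or are folded by it 6 (24.0%) were lower and 0 higher, and 18 were below 0 on the deposited scale. Over all measured genes 22.0% were lower and 23.6% higher. Between 20 and 500 FPKM, a range that some of the 25 such as Actb lie outside, 12.0% were lower and 16.6% higher. Prefoldin hands unfolded actin and tubulin to the chaperonin, and its 6 genes had a median ratio of -0.52, all below 0 except that Pfdn1 (-0.05) was above 0 on the TPM scale (0.10), and 2 were lower: Pfdn5 at 189 and 53.4 FPKM (-1.83) and Vbp1 at 39.7 and 15.3 FPKM (-1.38). The 4 cofactor genes were within the cutoffs (median -0.33). Of the folded products, 11 of 12 genes were measured and 3 were lower, namely the tubulins Tuba1c at 15.7 and 3.41 FPKM (-2.21), Tubb6 at 36.0 and 15.1 FPKM (-1.25) and Tubb2b at 30.1 and 14.8 FPKM (-1.03). Tubb3, the tubulin of neurons, was listed at 0 in wild type and at 39.2 FPKM in Aldh1a2-/-, while beta-actin (Actb) was at 2022 and 2152 FPKM (0.09). Tubulin genes are close copies, and reads could have been split between them. Tbca, which receives beta-tubulin from the chaperonin, was at 28.8 and 5.45 FPKM (-2.40), and Tbcc was at 6.44 FPKM in the wild-type library and listed at 0 in the Aldh1a2-/- library.

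Of 13 genes of other chaperones 11 were measured, 1 was lower and 1 higher, against 22.0% and 23.6% of all measured genes. Dnajb1, a heat-inducible partner of HSP70, was at 18.1 FPKM in the wild-type library and 53.0 FPKM in the Aldh1a2-/- library (1.55), and Dnaja1 was at 17.0 and 9.34 FPKM (-0.86), a ratio within the cutoffs on the TPM scale (-0.70), with a pseudocount of 0.5 or 1 and at a cutoff of 1. The inducible HSP70 genes Hspa1a and Hspa1b were listed at 0 in wild type and at 1.88 and 1.66 FPKM in Aldh1a2-/-. The most abundant chaperone of the list, Hsp90ab1, was at 4662 and 4998 FPKM (0.10).

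**Figure D4:**
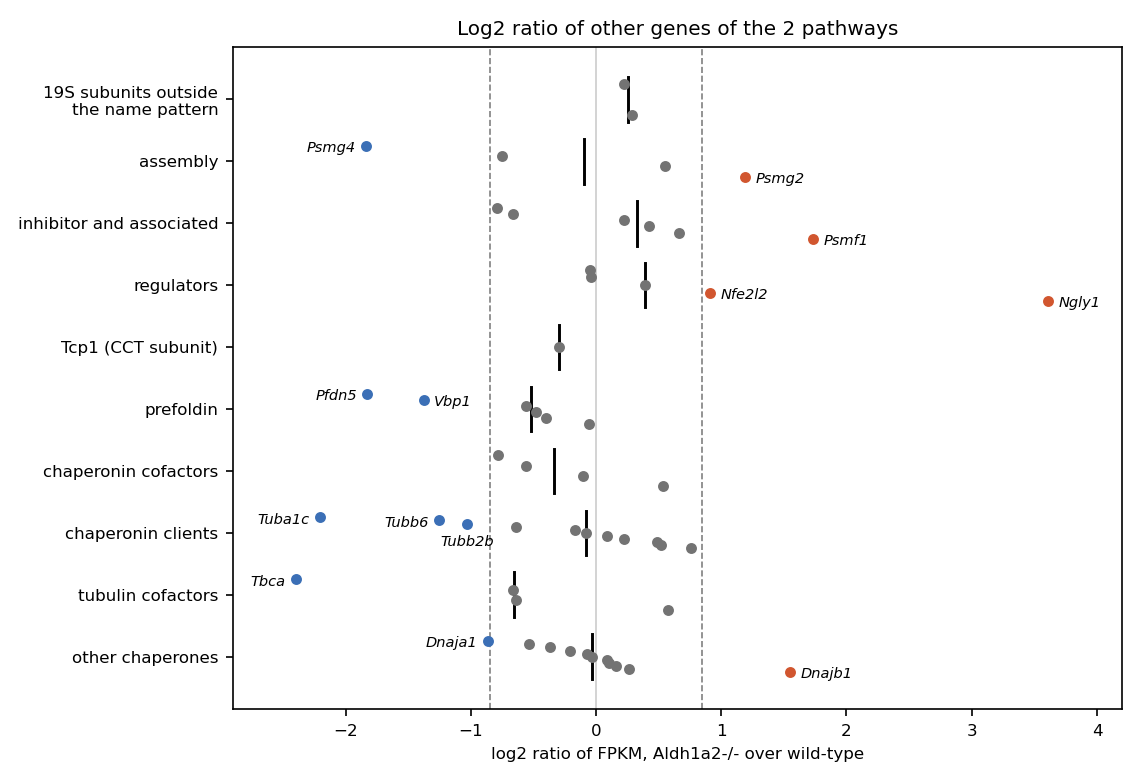
Log2 ratio of FPKM, Aldh1a2-/- over wild type, of 54 measured genes that work with the proteasome or the chaperonin (points) by role, ubiquitin and shuttle genes left out, with medians (black bars) and the cutoffs at -0.85 and 0.85 (dashed); labelled genes are past a cutoff. The 6 prefoldin genes lie below 0 on the deposited scale (Pfdn1 lies above 0 on the TPM scale), and assembly factors lie on both sides.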

How the data were processed

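Trunk RNA of 1 wild-type and 1 Aldh1a2-/- sample at E8.5 was analysed from 1 table of 24340 genes. The authors deposited FPKM values for both samples on mm10. STAR, Cufflinks and Cuffdiff are named in the submitters' processing notes, whereas the paper's methods name TopHat, expectation maximization and a likelihood ratio test in edgeR, and versions are not given in the sources used here. The labels describe both a total RNA kit and a poly(A) selection kit. The fold change, p-value and q-value columns of the authors' comparison were not used, and their status column served only as a filter in an alternative. In the copy used here 1 line was empty.

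Log2 ratios used the FPKM as deposited, with no pseudocount or scaling, where both values passed 0.5, in Python 3.11.15 (numpy 2.4.6, pandas 2.3.3, matplotlib 3.10.9). The calculation was checked on simulated shifts of known size, which says nothing on how reliable the calls in these data are. The table holds no counts, so depth was estimated from the steps between low values, and no interval was given. No test was run, since each genotype has 1 sample.

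Members and lists were chosen with earlier results of these data known. Named genes were every member past a cutoff, and in each part the 2 highest and 2 lowest ratios and the highest and lowest wild-type level; the remaining members and the pathway genes were given in addition. Some genes of the pathways are not reported here. Loci were compared with RefSeq genes, and promoters were taken from RefSeq on GRCm38.p6. Alternatives were other floors, pseudocounts, scalings, a cutoff of 1, genes with status OK and other member sets.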

Additional observations from a re-analysis of the deposited data

How the results depend on the processing

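Scaling moved all log2 ratios together, by 0.16 on the TPM scale, by -0.10 with upper quartile scaling and by -0.02 with centring, so differences relative to the median of all genes did not depend on it. On the TPM scale and with upper quartile scaling, the median log2 ratio was -0.11 and -0.37 for the core (-0.26 as deposited), 0.0279 and -0.23 for the regulatory particle (-0.13), 0.0160 and -0.24 for the chaperonin (-0.14), -0.0236 and -0.28 for all members (-0.18) and 0.18 and -0.0818 for all genes (0.02). The log2 ratio of the sums was -0.0531 and -0.31 for the core, 0.16 and -0.10 for the regulatory particle and 0.032 and -0.23 for the chaperonin under the same scalings. Without the base chaperones 3 genes of the regulatory particle were past a cutoff in place of 5. Over all genes the count past a cutoff was 2094 above 5 FPKM and 7000 with no floor and a pseudocount of 0.5 (4330 as reported), the latter with a median of -0.10. Psmb10 sets the SD of log2 FPKM over the 15 core genes, which was 1.72 in wild type and 1.94 in Aldh1a2-/- with it and 0.925 and 1.32 above 5 FPKM, where it drops out. In place of the SD, the interquartile range of log2 FPKM in wild type and Aldh1a2-/- was 1.42 and 2.18 for the core, 0.961 and 2.05 for the regulatory particle (SD 1.26 and 1.42, base chaperones included; 0.792 and 0.763 for its 17 subunits alone, where the interquartile range is no larger in Aldh1a2-/-) and 0.8 and 0.911 for the chaperonin. The other 108 values under the alternatives stayed within 1.5 times of a count or within 0.1 of a log2 value. No paired analysis was possible because each genotype has 1 sample, and for the same reason no replicate could be left out. Depth limits single low genes such as Psmb10 more than the abundant subunits, and the precision of any value between animals is unknown.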
